A study of Mus musculus with 4 samples.

Results

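Lrrc15 Tnc myofibroblasts are collagen-producing stromal cells with RNA of both Lrrc15, a leucine-rich repeat membrane protein, and Tnc, the matrix glycoprotein tenascin-C. They were selected from single-cell RNA sequencing of subcutaneous tumours of MC38, a mouse colon carcinoma cell line. In all, 350 barcodes met the rule, of 42710 that passed the quality limits, of which 56 and 149 came from KO tumours 1 and 2 and 126 and 19 from WT tumours 1 and 2. KO tumours grew from MC38 cells with a knockout of Hnrnpa2b1, an RNA-binding protein gene, and WT tumours from MC38 cells with Hnrnpa2b1 in place. Both were grown in C57BL/6J mice injected under the skin of the flank at 8 weeks of age, and each group held 2 tumours. The knockout is in the injected cells, and the labels give no alteration of the host, so the host stroma of both groups carries Hnrnpa2b1. The labels do not say whether the injected cells were 1 clone or a pool, or what equal tumour numbers share, so p-values measure only the spread between these tumours.

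A barcode was kept with at least 300 genes, at least 500 unique molecular identifiers (UMIs, counts of single RNA molecules) and at most 20% mitochondrial UMIs. A gated fibroblast had fewer than 20 UMIs per 10000 in 7 tumour-cell genes summed (Krt14, Sox9, Hmga2, Tnnt2, Tubb3, Crabp2, Ankrd1), at least 30 per 10000 in Col1a1, Col1a2 and Col3a1, no Ptprc, and Pdgfra or Lum. Of 1565 gated fibroblasts, the myofibroblasts were those with at least 1 UMI each of Lrrc15 and Tnc and none of Pi16, a marker of adventitial fibroblasts. The remaining 1215 are called the other gated fibroblasts below. In GRCm38, Lrrc15 lies on the minus strand at chr16:30269302-30283256 and Tnc on the minus strand at chr4:63959785-64047015. These values chose the cells, so the contrast of myofibroblasts with other fibroblasts is described here and not tested.

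Myofibroblasts are contractile fibroblasts known from healing wounds and tumours, where transforming growth factor beta drives them to lay down and stiffen collagen matrix. In tumours, Lrrc15 is a marker of the matrix-producing form of cancer-associated fibroblast. Fibroblasts can also respond to interferon-gamma from lymphocytes, through transcription factors such as IRF1, with chemokines that draw T cells and with antigen-presenting proteins. The comparison of KO with WT tumours asked how the state of these stromal cells differed when the tumour cells lacked Hnrnpa2b1.

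Libraries held 9547 and 9578 barcodes in KO tumours and 12741 and 11628 in WT tumours. Median UMIs per myofibroblast were 25155 and 17005 in KO tumours and 11582.5 and 11589 in WT tumours, so the KO cells were read more deeply. The summed myofibroblasts held 1387132 and 2715641 UMIs in KO tumours against 1839357 and 215301 in WT tumours. In WT tumour 2, with 19 cells, 1 UMI was worth 4.64 CPM (UMIs scaled to a common total per sum), against 0.721 CPM in KO tumour 1. Pairs of libraries shared 23 to 43 barcode sequences, none of them a myofibroblast in both.

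Cells just inside and outside the rule are counted here. Among members, 5 and 6 in KO tumours and 11 and 3 in WT tumours held a single Lrrc15 UMI, and 2, 5, 2 and 0 a single Tnc UMI. Gated cells without Pi16 that held Lrrc15 but no Tnc numbered 5 and 7 in KO tumours and 10 and 3 in WT tumours. Those with Tnc but no Lrrc15 numbered 2 and 16 in KO tumours and 31 and 7 in WT tumours. Pi16 alone kept out 37 and 11 cells in KO tumours and 21 and 0 in WT tumours. Ptprc alone kept out 28 and 48 cells in KO tumours, against 9 and 0 in WT tumours.

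Myofibroblasts made up 19.3% and 63.4% of gated fibroblasts in KO tumours 1 and 2, with exact 95% binomial intervals of 14.9% to 24.3% and 56.9% to 69.6%. In WT tumours 1 and 2 they made up 27.1% (23.1% to 31.4%) and 3.30% (2.00% to 5.11%). These intervals cover counting error only. The groups averaged 41.4% ± 31.2 in KO and 15.2% ± 16.8 in WT tumours (SD, n = 2 each), and the 2 KO tumours lay further apart from each other than these means. The groups overlapped, and a two-sided exact permutation test gave p = 0.667, where 2 against 2 tumours cannot go below 1 in 3. Among all kept barcodes, the cells made up 0.598% and 1.57% in KO tumours against 0.997% and 0.169% in WT tumours (exact permutation p = 0.667). With each barcode thinned to 5000 UMIs before the rule was applied, these shares were 1.008% and 2.46% against 0.852% and 0.189%, which did not overlap (exact permutation p = 0.3333). Thinning left out 4103 and 4288 shallower barcodes in KO libraries and 2651 and 3797 in WT libraries.

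**Figure D1:**
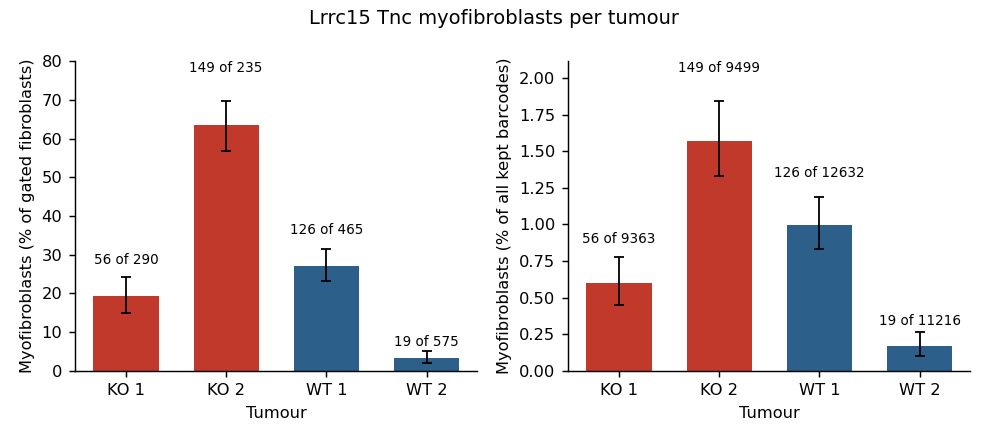
Percent of gated fibroblasts (left) and of all kept barcodes (right) that were Lrrc15 Tnc myofibroblasts, by tumour, with exact 95% binomial intervals and the cell numbers above the bars. KO tumour 2 was highest and WT tumour 2 lowest in both panels, and the KO and WT tumours overlapped.

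The label was checked on markers that the rule did not use. Postn, the matricellular protein periostin, had 3929 and 5209 CPM in the summed myofibroblasts of KO tumours and 4095 and 6591 CPM in those of WT tumours, without TMM scaling. In the other gated fibroblasts Postn had 1507, 2544, 527 and 242 CPM in KO tumours 1 and 2 and WT tumours 1 and 2, and in Ptprc-positive leukocytes 14, 8.57, 13.2 and 2.43 CPM. Tagln, the smooth muscle protein transgelin, had 1752 and 2093 CPM in KO and 1930 and 1180 CPM in WT myofibroblasts, against 82.7, 483, 95.9 and 5.06 CPM in the other gated fibroblasts. The fibril-associated collagen gene Col12a1 had 1735 and 2657 CPM in KO and 1918 and 2359 CPM in WT myofibroblasts, against 278, 739, 235 and 8.68 CPM in the others. Grem1, a secreted inhibitor of bone morphogenetic proteins, had 281 and 392.2 CPM in KO and 173 and 218 CPM in WT myofibroblasts, against 19.97, 68.7, 10.7 and 0 CPM in the others. All 4 marker genes were thus higher in the myofibroblasts of each of the 4 tumours, as was Acta2 (smooth muscle actin), at 1347 and 1683 CPM in KO and 1239 and 618 CPM in WT tumours.

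Markers of other cell types are given by their summed levels. The 10 adventitial fibroblast markers summed to 767 and 672 CPM in KO and 657 and 283 CPM in WT myofibroblasts, against 8334, 4281, 2454 and 3976 CPM in the other gated fibroblasts. Pi16, 1 of these 10, was at 0 in the myofibroblasts by the rule. Of the 1215 other gated fibroblasts 514 held Pi16, so the rule set part of this gap. Of 5 adipocyte markers, Adipoq, Plin1, Cidec and Lep were at 0, and Fabp4 had 165 and 114 CPM in KO and 28.3 and 23.2 CPM in WT myofibroblasts and rose by 2.37 on the log2 scale (edgeR adjusted p = 0.00475). The 10 pericyte and mural markers summed to 275 and 165 CPM in KO and 349 and 553 CPM in WT myofibroblasts, mostly from Ndufa4l2 and Cspg4. The pericyte-defining Rgs5 was at 2.88 and 4.05 CPM in KO tumours and at 0 in both WT tumours, and Myh11 at most at 2.72 CPM. Of the 10 endothelial markers, which summed to 146 and 59.7 CPM in KO and 55.5 and 51.1 CPM in WT myofibroblasts, Eng gave most, and Cdh5 was at most at 3.60 CPM. The 10 macrophage markers summed to 441 and 429 CPM in KO and 277 and 139 CPM in WT myofibroblasts, against 8894 to 15007 CPM in leukocytes. The 10 T and NK markers summed to 27.4 and 33.9 CPM in KO and 21.2 and 0 CPM in WT myofibroblasts, and the 10 neutrophil markers to 213, 232, 131 and 139 CPM, of which Mmp9 gave 134 and 182 CPM in KO and 105 and 130 CPM in WT tumours. In the Schwann list, Sox10 was at 0 in all 4 sums, and Ncam1 alone gave 268 to 456 CPM.

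Xist, the RNA of the inactive X chromosome, separated the cells of the comparison unevenly. At least 1 Xist UMI was present in 98.2% and 98.7% of KO and 85.7% and 89.5% of WT myofibroblasts. Among the other gated fibroblasts it was present in 91.9% and 80.2% in KO tumours but in 19.2% and 34.5% in WT tumours. Cells past the limit on tumour-cell genes held it in 29.5% and 19.7% in KO and 5.40% and 4.57% in WT tumours, at median UMIs of 36493, 31807, 14020 and 15015.5. Leukocytes held it in 85.1% and 85.7% against 66.2% and 69.6%. The WT cells outside the rule therefore consisted largely of cells without detected Xist, and the main comparisons with them are given again for cells with at least 1 Xist UMI. Among gated fibroblasts with Xist, myofibroblasts made up 20.4% and 68.1% in KO and 62.4% and 8.13% in WT tumours. The group means were then 44.2% in KO and 35.3% in WT tumours (exact permutation p = 0.667). WT tumour 1 thus stood at 62.4% in this class, against 27.1% among all gated fibroblasts. Among other gated fibroblasts with Xist, Postn had 1569 and 3111 CPM in KO and 1757 and 788 CPM in WT tumours, and Tagln 87.0, 602, 382 and 15.7 CPM. Postn, Tagln, Col12a1 and Grem1 stayed below their myofibroblast levels in each of the 4 tumours in that restricted class.

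**Figure D2:**
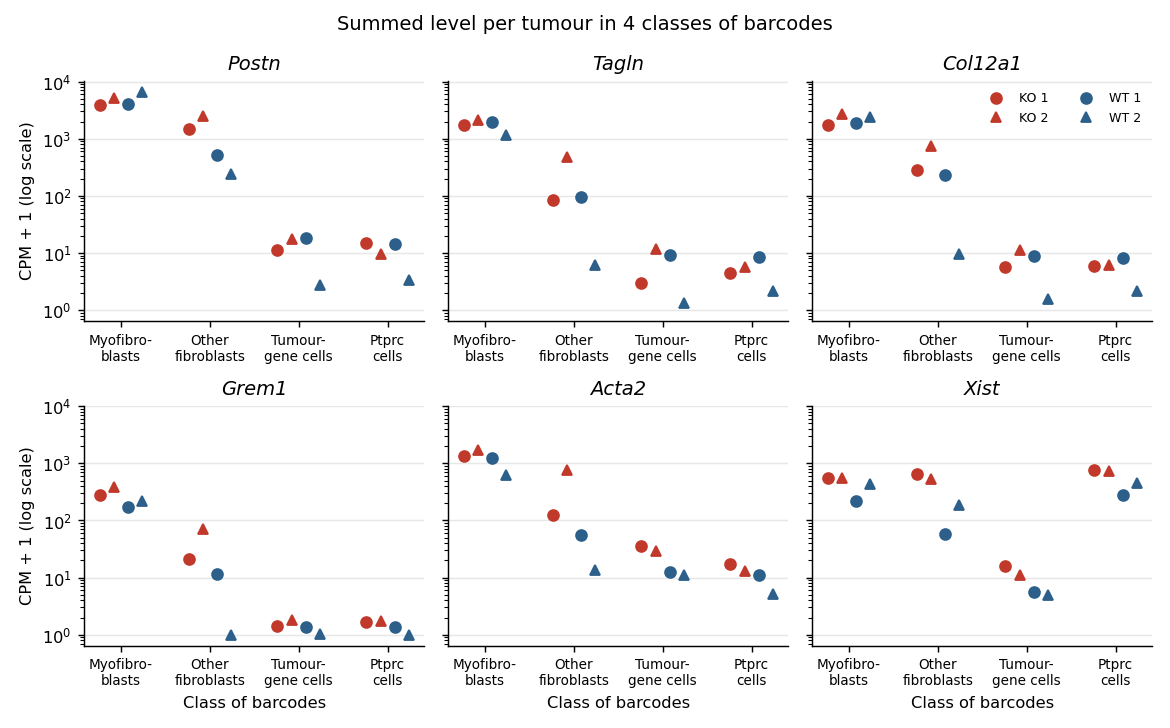
Summed level (CPM + 1, log scale) of 5 marker genes and Xist in myofibroblasts, other gated fibroblasts, cells past the limit on tumour-cell genes and Ptprc-positive leukocytes, one point per tumour (red, KO; blue, WT; circles, tumour 1; triangles, tumour 2). The 5 marker genes were highest in myofibroblasts, and Xist in the other gated fibroblasts was lower in both WT tumours (57.4 and 184 CPM) than in both KO tumours (646 and 531 CPM).

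Across all genes of at least 50 CPM in the higher class, 767 were higher in the myofibroblasts than in the other gated fibroblasts in 4 of 4 tumours, and 743 were lower. After Tagln, the genes of highest ratio were Spp1 (osteopontin), Grem1, Col12a1, Acta2, the collagenase Mmp13 and Ass1, an enzyme of arginine synthesis. Others among the leading 15 were Ccn2 (connective tissue growth factor), Ccbe1, Enpp1, the mechanosensitive channel gene Piezo2, Sema7a, Hs6st2, Cck and Cxcl9. Spp1 had 3065 and 4135 CPM in KO and 5065 and 9252 CPM in WT myofibroblasts, against 136, 753, 759.6 and 46.5 CPM in the other gated fibroblasts. The lowest ratios were those of adventitial fibroblast genes, led by Clec3b (tetranectin), Itih5, Tnxb and Efemp1. Clec3b had 20.9 and 3.31 CPM in KO and 1.63 and 0 CPM in WT myofibroblasts, against 1141, 499, 102 and 386 CPM in the others. With at least 1 Xist UMI required of the other fibroblasts, 833 genes were higher and 643 lower in 4 of 4 tumours, and Spp1, Tagln and Grem1 had the highest ratios and Clec3b, Itih5 and Tnxb the lowest. Cxcl9, Mmp13 and Ccn2 were then no longer among the leading 15. In WT tumour 1, Cxcl9 had 1144 CPM in myofibroblasts against 2068 CPM in the other fibroblasts with Xist. These counts and levels describe the selection and support nothing beyond it.

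The contractile state varied from cell to cell. Tagln was found in 76.8% and 83.9% of KO and 88.9% and 78.9% of WT myofibroblasts, and thinned to 5000 UMIs in 70.4% and 73.5% against 85.7% and 77.8%. In leukocytes, which should lack it, the thinned shares were 1.09% and 2.53% in KO and 2.31% and 0.170% in WT tumours. The 10% of myofibroblasts richest in Tagln held 55.1% and 50.8% of its UMIs in KO and 38.5% and 48.4% in WT tumours. By contrast the 10% richest in Postn held 20.3% and 20.2% in KO and 20.8% and 25.2% in WT tumours. Postn was found in nearly every cell, at 8.28 to 116 and 5.84 to 144 UMIs per 10000 in KO and 0 to 154 and 8.44 to 104 in WT tumours. A larger part of the Tagln, Acta2 and Grem1 UMIs than of the Postn UMIs lay in the richest 10% of cells. Cells with UMIs of both Mki67 and Top2a, genes of dividing cells, made up 35.7% and 21.5% of KO and 39.7% and 5.26% of WT myofibroblasts, and the groups overlapped.

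UMI counts of the myofibroblasts were summed per tumour and compared with edgeR's quasi-likelihood test over 9715 genes, with Benjamini-Hochberg adjustment over all of them. In KO tumours 175 genes were higher (1.8% of those tested) and 31 lower (0.319%), 206 in all (2.12%), at an adjusted p under 0.05, and the median log2 fold change of all genes was 0.003. Of these genes, 3 belong to the rule (Tnnt2, Crabp2 and Krt14) and are not read as results. Myofibroblasts of WT tumour 2 gave few counts. Without WT tumour 2 the number called was 323, and without WT tumour 1, which leaves its 19 cells as the only WT sample, it was 37. In fits with 1 tumour left out, the lone sample of a group is assumed to vary like the other group. Of 80 named genes past the threshold, 66 lost the call without WT tumour 1, none with a change of sign. Calls below are from the 4 tumours, and the genes that passed in all 14 other settings were Cxcl9, Cxcl10, Cxcl1, Gbp2, Tap1, Zbp1, Nfkbia, Igf1, Ogn and Sox11.

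Interferon-gamma response genes were higher in KO myofibroblasts. Of 24 tested, 21 rose (87.5%, beside 1.8% of all tested genes) and none fell. In all 24 both KO tumours lay above both WT tumours, a pattern that 22.3% of all tested genes showed. The list's median log2 fold change was 2.11, beside 0.003 for all genes. Cxcl9, a chemokine that attracts T cells through CXCR3, had 8114 and 5684 CPM after TMM scaling in KO tumours and 1130 and 1973 CPM in WT tumours. The log2 fold change of Cxcl9 was 2.16, SE (standard error) 0.34, at an edgeR adjusted p of 0.0110, and the groups did not overlap. Cxcl10, which acts on the same receptor, had 1560 and 1325 CPM in KO and 172 and 128 CPM in WT tumours (log2 fold change 3.21, SE 0.29, edgeR adjusted p = 0.00206). Cxcl11, the third ligand of CXCR3, had 51 UMIs in the KO sums and 0 in the WT sums, and was at least 8.51-fold higher in KO tumours against a floor of 3 UMIs over the WT group (edgeR adjusted p = 0.0287).

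The regulators of the response moved in the same direction. Irf1 had 354 and 432 CPM in KO and 104 and 138 CPM in WT tumours (log2 fold change 1.76, SE 0.28, edgeR adjusted p = 0.0117). Irf8 rose by 2.69 and Socs1, the feedback inhibitor of the pathway, by 2.27 on the log2 scale. Irf8 had a mean of 349 CPM in leukocytes, against at most 80.6 CPM in the myofibroblasts of any tumour. It lost the call in 2 of the 14 other settings, thinning among them. The guanylate-binding protein gene Gbp2, whose product acts in defence inside cells, had 1182 and 1056 CPM in KO and 195 and 376 CPM in WT tumours (2.04, SE 0.33, adjusted p = 0.0129). Further members that rose were Gbp3, Gbp5, Gbp6, Gbp7, Igtp, Iigp1, Irgm1, Tgtp2, Ifi47 and Ccl5. Several of these belong to families with closely similar copies, so their separate values are uncertain. Ccl5 lost the call with doublets removed, with free RNA subtracted and after thinning. Ifi47 lost it in 6 of the 14 other settings and Irgm1 in 5. Icam1, an adhesion molecule for leukocytes, had 155 and 161 CPM in KO and 25.8 and 33.3 CPM in WT tumours (2.54, SE 0.28, adjusted p = 0.00396), and Vcam1 rose by 1.56 (adjusted p = 0.0483). The call of Vcam1 was lost in 6 of the 14 other settings, no TMM, subtracted free RNA and thinning among them. Gbp4, Irgm2 and Nlrc5 did not pass.

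Without WT tumour 1, 3 of the 21 interferon-gamma genes kept the call, Cxcl9, Cxcl10 and Gbp2. The other 18 had log2 fold changes above 0 and adjusted p of at most 0.491 in that fit. Without KO tumour 1 the number kept was 15, without KO tumour 2 it was 17 of 20 tested, and without WT tumour 2 it was 21.

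Levels of these RNAs in other cells of the same tumours are given beside them. Cxcl10 had 464 and 469 CPM in leukocytes of KO and 238 and 281 CPM in those of WT tumours, and 1186 and 942 CPM in KO and 139 and 286 CPM in WT cells past the limit on tumour-cell genes. For Cxcl9 the levels were 604 and 1252 CPM in leukocytes of KO and 672 and 390.4 CPM in those of WT tumours, and 95.9, 119, 39.7 and 74.8 CPM in cells past the tumour-gene limit. Cxcl9 was thus higher in KO myofibroblasts than in either of these classes of the same tumours. Free RNA was estimated from 13 leukocyte genes at 4.87% and 7.17% of myofibroblast UMIs in KO and 17.3% and 2.83% in WT tumours. With that share subtracted, 18 of 23 interferon-gamma genes rose. Doublet scores marked 6 and 17 myofibroblasts in KO and 26 and 0 in WT tumours, and without them 20 of 23 rose. With members thinned to 5000 UMIs each, 13 of 21 rose.

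**Figure D3:**
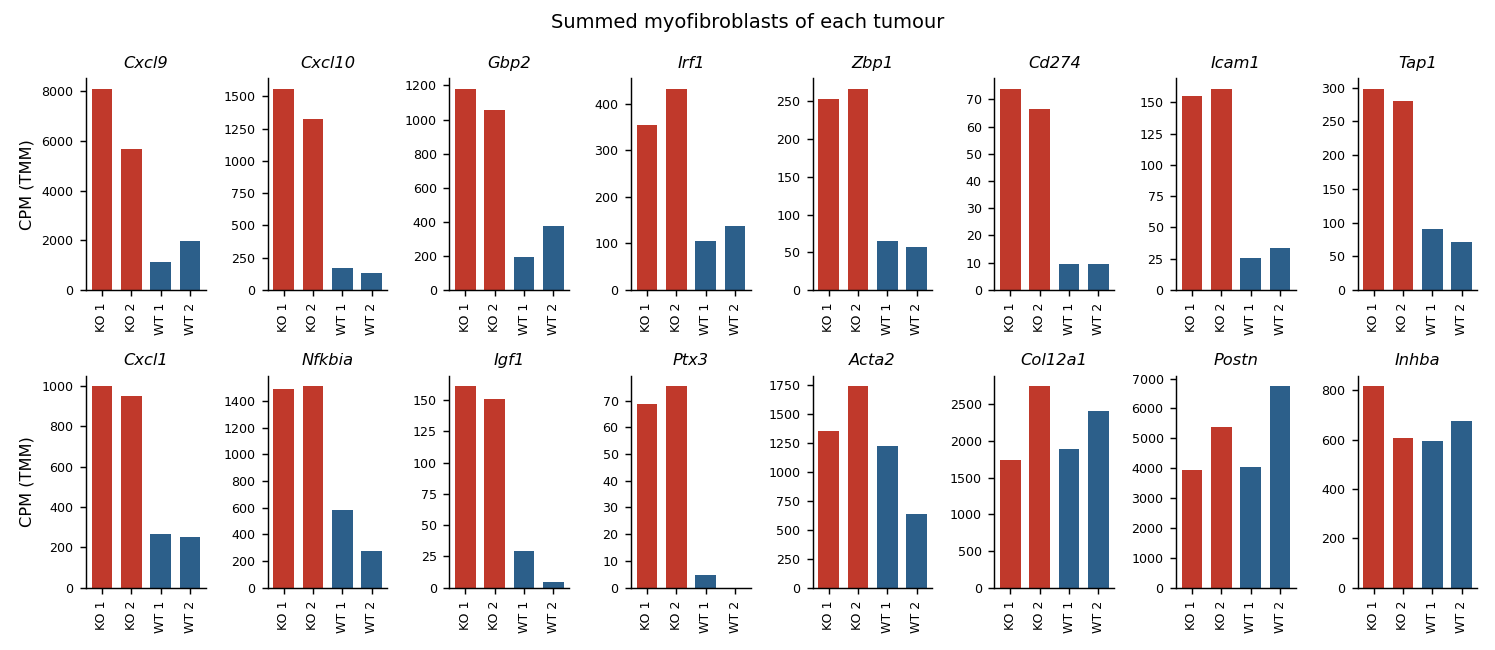
Summed level per tumour (CPM after TMM, linear axes from 0) of 16 genes in the myofibroblasts, KO tumours in red and WT tumours in blue. The KO tumours lay above the WT tumours in the 12 interferon, inflammatory and growth factor genes, whereas Col12a1, Postn and Inhba overlapped and Acta2 did not pass the test.

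In single cells, Cxcl9 was spread over a wide range. Its median was 51.4 and 23.8 UMIs per 10000 in KO and 1.46 and 0 in WT myofibroblasts, and its highest value in a cell was 269 and 407 in KO and 163 and 199 in WT tumours. The highest WT cells thus reached the range of the KO cells. The 10% of cells richest in Cxcl9 held 37.8% and 43.1% of its UMIs in KO and 57.9% and 60.5% in WT tumours. For Cxcl10 these parts were 45.0% and 47.7% in KO and 81.0% and 81.5% in WT tumours. For Gbp2 they were 32.3% and 41.3% in KO and 51.8% and 72.2% in WT tumours. The summed levels of these genes in WT tumour 2 thus rest on few of its 19 cells. After thinning to 5000 UMIs, Cxcl9 was found in 83.3% and 76.2% of KO and 52.9% and 33.3% of WT myofibroblasts, with 2, 2, 7 and 1 shallower cells left out. Unthinned shares were 94.6% and 85.9% in KO and 68.3% and 42.1% in WT tumours. The thinned share in cells past the tumour-gene limit, at higher median UMIs in each tumour, was 22.0% and 22.9% in KO and 11.7% and 12.7% in WT tumours. Gbp2 had a median of 9.79 and 5.00 UMIs per 10000 in KO and 0.816 and 0.832 in WT myofibroblasts. Cells with both Acta2 and Cxcl9 numbered 45 of 56 and 105 of 149 in KO and 75 of 126 and 4 of 19 in WT tumours. These counts are unthinned, and the KO cells were read more deeply.

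**Figure D4:**
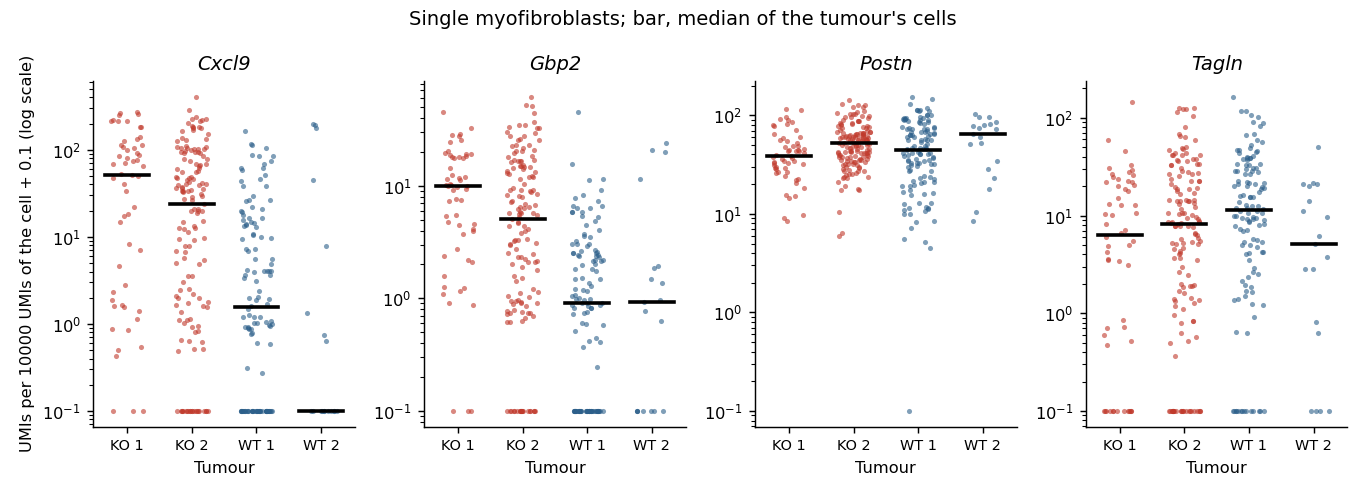
UMIs per 10000 UMIs of each myofibroblast (plus 0.1, log scale) for Cxcl9, Gbp2, Postn and Tagln by tumour, with bars at the median of the cells of each tumour. Cxcl9 medians were 51.4 and 23.8 in KO and 1.46 and 0 in WT tumours, while Postn was found in nearly every cell.

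Promoters of called genes are shown for the letters of the sites that the interferon and NF-kappaB factors are known to bind. The 250 bases before the start of each gene are from the RefSeq table of GRCm38.p6. Capitals mark matches on either strand to TTCNNNGAA (the gamma-activated site, GAS), GAAA and GAAA parted by any 2 bases (the interferon-stimulated response element, ISRE) or GGG and TTTCC parted by any 2 bases (kappaB). The genes shown are Cxcl10 at chr5:92348890-92349139 on the minus strand, Irf1 at chr11:53769764-53770013 and Gbp5 at chr3:142496684-142496933 on the plus strand, and the inflammatory gene Cxcl1 at chr5:90890995-90891244 on the plus strand.
Cxcl10: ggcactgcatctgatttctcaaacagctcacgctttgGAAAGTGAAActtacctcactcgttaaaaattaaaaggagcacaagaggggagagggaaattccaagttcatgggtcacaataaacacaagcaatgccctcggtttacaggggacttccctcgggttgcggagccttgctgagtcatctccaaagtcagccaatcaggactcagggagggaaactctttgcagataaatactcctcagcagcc
Irf1: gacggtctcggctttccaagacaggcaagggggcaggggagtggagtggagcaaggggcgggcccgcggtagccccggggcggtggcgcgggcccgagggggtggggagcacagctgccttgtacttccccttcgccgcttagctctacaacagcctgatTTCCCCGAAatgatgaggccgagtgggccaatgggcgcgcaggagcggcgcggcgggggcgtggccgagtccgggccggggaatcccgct
Gbp5: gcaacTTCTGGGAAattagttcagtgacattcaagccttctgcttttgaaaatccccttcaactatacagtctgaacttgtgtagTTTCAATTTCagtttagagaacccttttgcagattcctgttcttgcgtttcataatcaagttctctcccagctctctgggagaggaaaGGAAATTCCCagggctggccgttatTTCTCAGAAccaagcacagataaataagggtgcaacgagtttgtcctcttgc
Cxcl1: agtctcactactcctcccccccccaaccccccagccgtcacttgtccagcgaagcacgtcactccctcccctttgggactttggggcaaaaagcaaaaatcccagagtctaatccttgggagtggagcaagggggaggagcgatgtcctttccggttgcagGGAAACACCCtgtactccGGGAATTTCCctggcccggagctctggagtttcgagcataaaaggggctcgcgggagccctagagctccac

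In the 1 of 2 listed Irf1 promoters shown, the GAS letters lay 90 to 82 bases before the start, and in Cxcl10 the ISRE letters 213 to 204 bases before it. Gbp5 held GAS letters at 245 to 237 and at 52 to 44 bases, ISRE letters at 165 to 156 and kappaB letters at 77 to 68 bases before the start. Cxcl1 held kappaB letters at 89 to 80 and 71 to 62 bases. Of the 21 called interferon-gamma genes, 15 had an entry, with 18 promoters, of which 7 held GAS and 9 ISRE letters. Over 32851 promoters of the table, 7.02% held GAS, 2.98% ISRE and 1.41% kappaB letters. Among the called inflammatory genes, 4 had a promoter, and 3 of these (Cxcl1, Cxcl2 and Nfkbia) held kappaB letters. Of 6 promoters of the called MHC class I genes, 1 held GAS, 0 ISRE and 1 kappaB letters. Of 7 promoters of the called type I interferon genes, 1 held GAS, 2 ISRE and 0 kappaB letters. A match describes the letters only, and binding was not measured.

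Genes of antigen presentation on MHC class I were also higher. Of 20 tested, 6 rose (30%, beside 1.8% of all tested genes) and none fell. In all 20 both KO tumours lay above both WT tumours, as in 22.3% of all tested genes. The median log2 fold change was 1.005, beside 0.003 for all genes. Tap1, which moves peptides into the endoplasmic reticulum, had 299 and 280.2 CPM in KO and 90.7 and 71.3 CPM in WT tumours (log2 fold change 1.77, SE 0.26, edgeR adjusted p = 0.00908). Psmb8 and Psmb9, subunits of the immunoproteasome, rose by 1.48 and 1.30. Psmb9 lost the call in 8 of the 14 other settings and Psmb8 in 3. The non-classical genes H2-Q4, H2-Q6 and H2-Q7, related genes of 1 family, rose by 1.46, 1.54 and 1.88. The classical gene H2-K1 had 2346 and 2122 CPM in KO and 1137 and 1022 CPM in WT tumours and did not pass (1.05, SE 0.25, adjusted p = 0.0645). Of the 6 calls, 3 were kept without KO tumour 1, 3 without KO tumour 2, 2 (Tap1 and Psmb8) without WT tumour 1 and 5 without WT tumour 2. Among 7 genes of MHC class II and antigen-presenting fibroblasts none passed: H2-Ab1 had 86.3 and 79.9 CPM in KO and 70.9 and 52.3 CPM in WT myofibroblasts, against 1870.0 to 2589 CPM in leukocytes.

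In the type I interferon list, 9 of 30 genes rose (30%, beside 1.8% of all tested genes) and none fell. The median log2 fold change was 1.03. Zbp1, a sensor of foreign nucleic acid, had 253 and 267 CPM in KO and 64.9 and 57.0 CPM in WT tumours (2.05, SE 0.26, edgeR adjusted p = 0.00475). Irf7, Oasl2, Stat2, Herc6, Rtp4, Ifi44, Xaf1 and Bst2 also passed. Of the 14 other settings, Xaf1 lost the call in 11, Bst2 and Ifi44 in 8 each and Rtp4 in 7. Stat2 lost it in 4, Herc6 in 3, Irf7 in 2 and Oasl2 in 1. Ifit1 had 85.6 and 102 CPM in KO and 87.5 and 23.8 CPM in WT tumours, which overlapped (0.42, adjusted p = 0.673). Without WT tumour 1 only Zbp1 of the 9 kept the call, and without KO tumour 1, KO tumour 2 and WT tumour 2 the numbers kept were 5, 6 and 8. Many genes of this list also respond to interferon-gamma.

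Inflammatory genes rose in part. Of 28 tested, 8 rose (28.6%, beside 1.8% of all tested genes) and none fell, with a median log2 fold change of 0.74. The 8 were Cxcl1, Cxcl2, Cxcl5, Ccl7, Has2, Nfkb1, Nfkbia and Socs3. Cxcl1, a chemokine for neutrophils, had 999 and 949 CPM in KO and 266 and 252 CPM in WT tumours (1.91, SE 0.26, edgeR adjusted p = 0.00554). Nfkbia, the inhibitor and target of NF-kappaB, had 1492 and 1510 CPM in KO and 582 and 276 CPM in WT tumours (1.76, SE 0.33, adjusted p = 0.0205). Ccl7, a monocyte chemokine, had 1248 and 1117 CPM in KO and 471 and 138 CPM in WT tumours (1.86, SE 0.42, adjusted p = 0.0460). Ccl2, a related chemokine, had 1104 and 679 CPM in KO and 383 and 138 CPM in WT tumours and did not pass (adjusted p = 0.0619). Il6 was found after thinning in 9.26% and 4.08% of KO and 2.52% and 0% of WT myofibroblasts, and in 2.36% and 0.414% of leukocytes of KO and 0.865% and 1.36% of those of WT tumours. Without WT tumour 1, Cxcl1, Cxcl2, Ccl7 and Nfkbia kept the call. Ccl7 lost it in 8 of the 14 other settings, DESeq2, no TMM and removed doublets among them, and Cxcl2 in 4, DESeq2 and subtracted free RNA among them. Socs3 lost it without KO tumour 1 and without KO tumour 2.

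**Figure D5:**
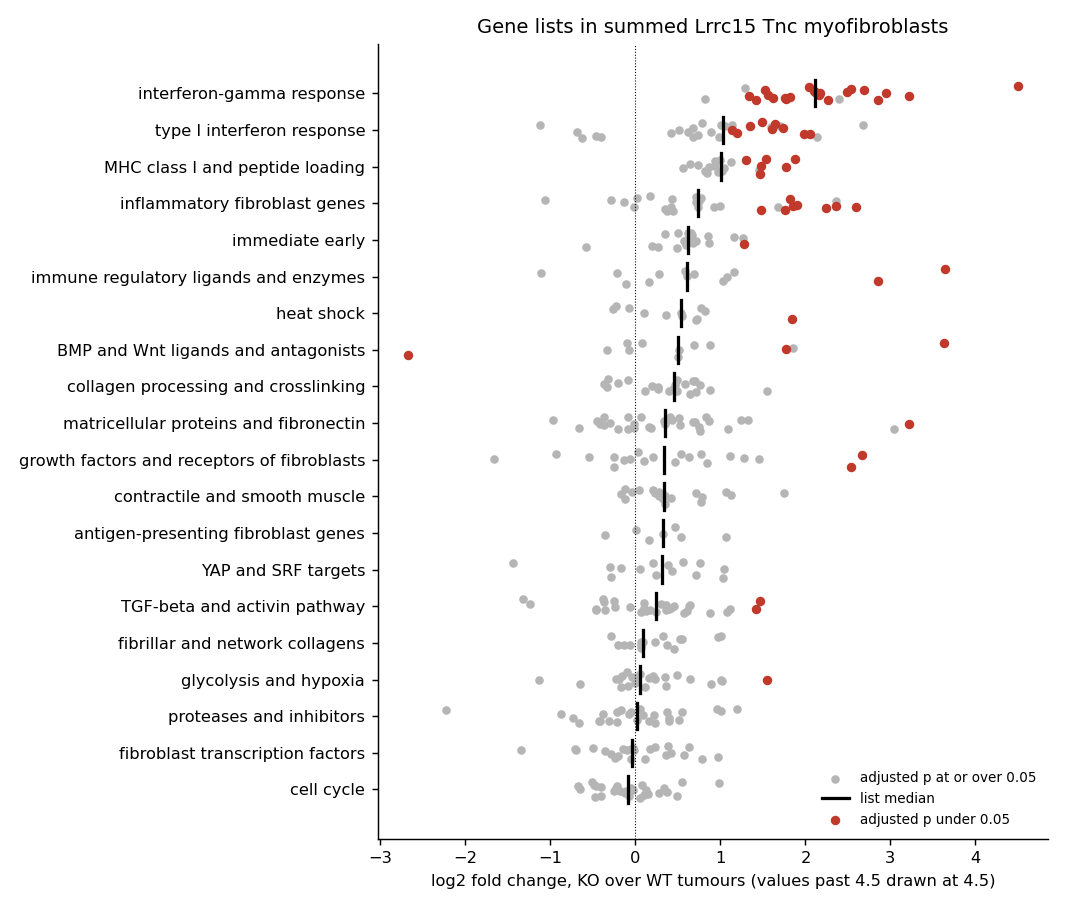
Log2 fold changes, KO over WT tumours, of the tested genes of 20 lists in the summed myofibroblasts (red, adjusted p under 0.05 by edgeR; grey, not passed; bar, median of the list). Cxcl11, at 7.22, is drawn at the right edge. The interferon-gamma list had the highest median (2.11), and the collagen list, at 0.09, held no red point.

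Immune regulatory genes were called in 2 of 13 tested cases (15.4%), beside 2.12% of all tested genes. Cd274, which encodes the checkpoint ligand PD-L1, had 74.0 and 66.6 CPM in KO and 9.66 and 9.51 CPM in WT tumours (2.85, SE 0.32, edgeR adjusted p = 0.00396). Nos2, inducible nitric oxide synthase, had 61.6 and 39.2 CPM in KO and 3.76 and 4.75 CPM in WT tumours (3.64, SE 0.47, adjusted p = 0.00475). In leukocytes Cd274 had 247 and 208 CPM in KO and 53.3 and 124 CPM in WT tumours, and Nos2 had 186 and 193 CPM against 25.2 and 109 CPM. Both calls were lost without WT tumour 1, at log2 fold changes of 2.88 (Cd274, adjusted p = 0.124) and 3.36 (Nos2, adjusted p = 0.289). Arg1 and Lgals9 did not pass.

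Genes that define the contractile and matrix state did not pass the test. In the contractile list 0 of 20, in the collagen list 0 of 17 and in the list of collagen processing and crosslinking 0 of 22 passed, with median log2 fold changes of 0.33, 0.09 and 0.45. Both KO tumours lay above both WT tumours in 9 contractile, 5 collagen and 13 processing genes, and below them in 0, 0 and 1, beside 22.3% above and 19.5% below over all tested genes. Acta2 had 1355 and 1740 CPM in KO and 1223 and 632 CPM in WT tumours, where both KO tumours lay above both WT tumours (0.72, SE 0.32, adjusted p = 0.370). Col12a1 had 1746 and 2746 CPM in KO and 1894 and 2415 CPM in WT tumours (0.06, SE 0.29, adjusted p = 0.973). Postn had a log2 fold change of -0.21 (SE 0.31, adjusted p = 0.858). Lox, which crosslinks collagen, had 656 and 669.6 CPM in KO and 762 and 955 CPM in WT tumours and did not pass (-0.36, SE 0.25, adjusted p = 0.609). A p that misses the threshold does not show equal levels. Of 33 matricellular genes, Ogn (osteoglycin) alone passed (3.03%, beside 2.12% of all tested genes). It had 84.1 and 98.6 CPM in KO and 11.3 and 0 CPM in WT tumours (3.22, SE 0.40, edgeR adjusted p = 0.00475). Ogn was higher in the other gated fibroblasts, at 944 and 509 CPM in KO and 119.6 and 342 CPM in WT tumours. Spp1 had 3083 and 4274 CPM in KO and 5001 and 9469 CPM in WT tumours without overlap, and did not pass (-0.97, SE 0.34, adjusted p = 0.223). Among 27 proteases and inhibitors none passed: the stromelysin gene Mmp3 had 200.2 and 212 CPM in KO and 369.8 and 1635 CPM in WT tumours (-2.23, SE 0.52, adjusted p = 0.0563).

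The transforming growth factor beta pathway showed 2 calls among 31 genes (6.45%), beside 2.12% of all tested genes. Tgfb2, a ligand, had 95 and 139 CPM in KO and 37.0 and 61.8 CPM in WT tumours (1.47, SE 0.32, edgeR adjusted p = 0.0382), and Tgfbr3, the co-receptor betaglycan, rose by 1.42 (adjusted p = 0.0197). Both calls were lost without KO tumour 2 (adjusted p of 0.131 to 0.392) and without WT tumour 1 (0.184 to 0.451). Tgfb2 lost the call in 9 of 14 other settings and Tgfbr3 in 5, DESeq2 and thinning among them for both. The ligand gene Tgfb1 had 119.7 and 121 CPM in KO and 129 and 204 CPM in WT tumours (-0.38, adjusted p = 0.630). Inhba, the activin A subunit, had 817 and 605 CPM in KO and 595 and 675 CPM in WT tumours, which overlapped (0.17, adjusted p = 0.861). Of 12 tested genes of the BMP and Wnt list, Rspo3 and Sfrp2 rose and Dkk2 fell. Over all tested genes 1.8% rose and 0.319% fell. The Wnt enhancer Rspo3 had 21.0 and 37.7 CPM in KO and 2.68 and 0 CPM in WT tumours (3.62, SE 0.60, adjusted p = 0.0131). The Wnt antagonist Dkk2 had 7.98 and 4.57 CPM in KO and 45.1 and 14.3 CPM in WT tumours (-2.67, SE 0.47, adjusted p = 0.0160), and 77.0, 79.3, 147 and 121 CPM in cells past the tumour-gene limit. All 3 calls were lost without WT tumour 1 (adjusted p of 0.105 to 0.702), and that of Sfrp2 also without KO tumour 2 and without WT tumour 2.

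Growth factor genes rose in 2 of 20 cases (10%), beside 1.8% of all tested genes. Igf1, insulin-like growth factor 1, had 161 and 151 CPM in KO and 29.0 and 4.75 CPM in WT tumours (2.66, SE 0.36, edgeR adjusted p = 0.00554). Gas6, a ligand of the TAM receptors, had 140.0 and 83.4 CPM in KO and 19.9 and 14.3 CPM in WT tumours (2.54, SE 0.36, adjusted p = 0.00703), and lost the call without WT tumour 1 (adjusted p = 0.239). Both genes were at most at 27.8 CPM in leukocytes and in cells past the tumour-gene limit. Both had their highest levels in the other gated fibroblasts, where Igf1 had 373 and 304 CPM in KO and 33.5 and 39.6 CPM in WT tumours, and Gas6 had 615 and 385 CPM in KO and 50.3 and 109.8 CPM in WT tumours. In those with Xist, Igf1 had 385 and 366 CPM in KO and 119 and 132 CPM in WT tumours (1.64, adjusted p = 0.163), and Gas6 638 and 477 CPM in KO and 163 and 356 CPM in WT tumours (1.16, adjusted p = 0.538). In single calls of other lists, Hk2 (hexokinase 2) rose by 1.54, Fosb by 1.28 and Hspb1 by 1.84. They were 1 of 25 glycolysis and hypoxia genes (4%), 1 of 21 immediate early genes (4.76%) and 1 of 12 heat shock genes (8.33%). Over all tested genes 1.8% rose. In 17 of the 21 immediate early genes both KO tumours lay above both WT tumours, and in 1 below, beside 22.3% and 19.5% of all tested genes. The median log2 fold change of that list was 0.62. The call of Hk2 was lost without KO tumour 2 (adjusted p = 0.0726), that of Hspb1 without WT tumour 1 (0.168), and that of Fosb without KO tumour 1, KO tumour 2 or WT tumour 1 (0.213, 0.299 and 0.0929). No gene passed among 29 cell cycle genes, 14 targets of YAP and SRF and 24 fibroblast transcription factors, whose median log2 fold changes were -0.09, 0.31 and -0.04.

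Among genes of at least 20 CPM whose groups did not overlap, the 15 with the largest rise began with Ptx3, a pattern recognition protein of inflammation. Ptx3 had 68.9 and 75.4 CPM in KO and 4.83 and 0 CPM in WT tumours (4.06, SE 0.41, edgeR adjusted p = 0.00240). In the other gated fibroblasts Ptx3 had 453 and 213 CPM in KO and 53.3 and 30.02 CPM in WT tumours. Sox11, a transcription factor of development, had 158 and 160.3 CPM in KO and 19.9 and 23.8 CPM in WT tumours (2.95, SE 0.29, adjusted p = 0.00239), and was at most at 1.00 CPM in leukocytes and in cells past the tumour-gene limit. F3, the tissue factor of blood clotting, rose by 2.68, the small GTPase gene Rnd1 by 3.26, the protease gene Adamts15 by 3.41 and the growth factor gene Ptn by 3.09. The remaining genes of the 15 were Nos2, Ogn, Cxcl10, Gbp5, Cd274, Irf8 and the predicted genes Gm37033, Gm38009 and Gm8995. Gm37033 and Gm8995 had higher levels in leukocytes (184 and 355 CPM in KO tumour 1) than in myofibroblasts. Of the 15, Ogn, Cxcl10 and Sox11 kept the call without WT tumour 1 and the others lost it. Ptn lost it also without WT tumour 2, and Gm37033 without WT tumour 2 and without KO tumour 2.

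Most genes lower in KO myofibroblasts had more RNA in cells past the tumour-gene limit. Of the 31, 27 (87.1%) had a higher mean level there than in myofibroblasts, as did 56.7% of all tested genes. Of the 175 higher genes, 61 (34.9%) had a higher mean level in leukocytes than in myofibroblasts, as did 52.4% of all tested genes. Cpe (carboxypeptidase E) had 7.25 and 6.47 CPM in KO and 70.3 and 23.8 CPM in WT myofibroblasts (-3.09, SE 0.42, edgeR adjusted p = 0.00554), and 84.3, 73.2, 138 and 122 CPM in cells past the limit. The cytokine gene Il34 (-1.90), the antiviral gene Ifitm1 (-1.66), the cadherin gene Cdh13 (-1.85), Eps8 (-1.77) and Klra4 (-1.83) were likewise higher in those cells. The zinc transporter gene Slc39a10 fell by 1.66 and had a lower mean level in those cells. The lipid synthesis genes Scd1, Scd2 and Idi1 fell by 1.62, 1.41 and 2.10, and Snhg9, Cirbp, 2410006H16Rik and Gm15427 by 2.17, 1.54, 1.34 and 1.34. Sparcl1, a matricellular gene (-2.21), was at most at 1.92 CPM in cells past the limit. All 15 lost the call without WT tumour 1, and only Cpe, among them, with no other tumour left out and no other setting. The tumour-cell markers summed to 487 and 483 CPM in KO and 1054 and 502 CPM in WT myofibroblasts, and the 7 of them that the rule did not use to 73.5 and 39.0 against 146 and 102 CPM. In a fit restricted to myofibroblasts with fewer than 10 tumour-gene UMIs per 10000, which left out 4 and 7 KO and 28 and 1 WT cells, 24 genes were lower and 19 of 23 interferon-gamma genes higher. In a fit restricted to myofibroblasts with at least 1 Xist UMI, 128 genes were higher and 17 lower. There 18 of 24 interferon-gamma genes were higher. The part of tumour-cell RNA in the lower genes was not tested further. Hnrnpa2b1 (chr6:51460932-51469894, minus strand) had 326 and 314 CPM in KO and 349 and 333 CPM in WT myofibroblasts (-0.10, adjusted p = 0.932). The origin of these cells, host or tumour, was not tested, and the position of the edit is not given in the sources used here.

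The other gated fibroblasts of the same tumours were tested in the same way. Cells with Pi16 were 208 of 234 and 48 of 86 of them in KO tumours. In WT tumours they were 83 of 339 and 175 of 556. The make-up of this class thus differed between groups, and its part in the calls was not tested. Of 11984 genes, 1055 were higher (8.8%) and 438 lower (3.65%) in KO tumours, 1493 in all (12.5%). Leaving out 1 tumour gave 753 calls without KO tumour 1, 2203 without KO tumour 2, 333 without WT tumour 1 and 410 without WT tumour 2. With at least 1 Xist UMI per cell, none of 9232 genes passed in edgeR, with 778 at an unadjusted p under 0.05; DESeq2 was not run on these cells. In that restricted fit 215 and 69 KO and 65 and 192 WT cells remained. Cxcl10 had 451 and 753 CPM in KO and 187 and 108 CPM in WT other fibroblasts (2.13, adjusted p = 0.0244), and 436, 731, 312 and 83.2 CPM in those with Xist (1.64, adjusted p = 0.537). Cxcl9 had 313 and 1451 CPM in KO and 715 and 119 CPM in WT other fibroblasts, which overlapped (1.16, adjusted p = 0.423), and 306, 1764, 2068 and 145 CPM in those with Xist (-0.04, adjusted p = 0.998).

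Whether the change between KO and WT tumours differed between the classes was tested in 1 model of the 8 sums with the tumour as a block. The difference passed for 146 of 11828 genes (1.23%), more negative in the myofibroblasts for 137 (1.16%) and more positive for 9 (0.0761%). With cells of at least 1 Xist UMI in both classes, none of 10542 genes passed in edgeR (574 at an unadjusted p under 0.05, smallest adjusted p = 0.224). Neither Cxcl9 (difference 0.93 on the log2 scale, SE 1.005, adjusted p = 0.824) nor Cxcl10 (1.19, SE 0.33, adjusted p = 0.131) passed, so the changes of these chemokine genes were not shown to differ between the classes. Nos2 (4.203, SE 0.71, adjusted p = 0.0173) and Ly6a (1.73, SE 0.27, adjusted p = 0.0133) were more positive in the myofibroblasts. Ly6a, the stem cell antigen Sca-1, had 2488 and 2359 CPM in KO and 924 and 643 CPM in WT myofibroblasts, against 2275, 1718, 2014 and 2199 CPM in the other gated fibroblasts, scaled by TMM over the 8 sums. In cells with Xist the differences were 5.79 for Nos2 (adjusted p = 0.224) and 1.90 for Ly6a (adjusted p = 0.332). Leaving out WT tumour 1 left 66 differences, leaving out WT tumour 2 left 49, and leaving out KO tumour 2 gave 578.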

How the data were processed

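Single-cell RNA was measured in 4 tumours, 2 KO and 2 WT. The deposited values are UMI counts per gene and barcode that the authors made with Cell Ranger on the mm10 genome, version 6.1.2 per the file headers and 5.0.1 per the labels' protocols; Seurat 5.1.0 is named in the submitters' processing notes. Tumours had been digested with collagenase, DNase I and dispase II per the labels' protocols, which can change early response genes. Counts of selected barcodes were summed per tumour and tested with edgeR 4.0.16 (TMM, filterByExpr, quasi-likelihood test, Benjamini-Hochberg threshold 0.05), with DESeq2 1.42.0 as an alternative. Shares were compared by exact permutation tests. Doublets were scored with Scrublet. The interaction model held the 8 sums with tumour as a block. Named genes were the 15 of largest change in each direction with an adjusted p under 0.05, a mean of at least 20 CPM and groups that did not overlap, plus fixed lists. The members and lists were chosen with earlier results of these data known. Scripts were tested on simulated data. Precision is limited by 19 cells in WT tumour 2. Alternatives covered scaling, the count filter, leaving out tumours, doublets, depth, free RNA, the UMI rule, and, chosen after seeing the data, Xist and tumour-gene limits. Some items are not reported here.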

Additional observations from a re-analysis of the deposited data

Results flagged for a closer look

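The change between KO and WT tumours differed between the myofibroblasts and the other gated fibroblasts for 146 genes, by the test of the difference itself. The 10 of smallest p were all more negative in the myofibroblasts. On the log2 scale the difference, myofibroblasts minus others, was -3.03 for Ace, -3.16 for Thbs1, -2.87 for Ctsk, -2.84 for Aoc3 and -2.24 for Col15a1. It was -2.58 for Plxdc2, -3.40 for Akap12, -3.87 for Smoc2, -5.82 for Lcn2 and -1.82 for Fn1. Thbs1, the matricellular protein thrombospondin 1, had 710.3 and 904 CPM in KO and 928 and 752 CPM in WT myofibroblasts, against 382, 444, 70.6 and 32.0 CPM in the other gated fibroblasts. Fn1 (fibronectin) had 2062 and 2261 CPM in KO and 2219 and 3456 CPM in WT myofibroblasts, against 2524, 2189.6, 774 and 937 CPM in the others. Lcn2 (lipocalin 2) had 0.746 and 0 CPM in KO and 13.3 and 4.73 CPM in WT myofibroblasts, against 193, 19.7, 61.6 and 20.5 CPM in the others, where KO and WT tumours overlapped. In the cells outside the rule, 91.9% and 80.2% of the KO ones held Xist, against 19.2% and 34.5% of the WT ones. Cells with Pi16 were 208 of 234 and 48 of 86 of the KO ones. Of the WT ones they were 83 of 339 and 175 of 556. In cells with Xist the 10 differences lay between -4.15 (Lcn2) and -0.72 (Col15a1), with edgeR adjusted p of 0.347 to 0.835.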

How the results depend on the processing

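The number of genes changed in the myofibroblasts, 206, was 113 with DESeq2, 510 with no filter on low counts and 97 with cells thinned to 5000 UMIs, and 37 to 323 with 1 tumour left out. Interferon-gamma genes higher in KO, 21, numbered 13 after thinning and 3 to 23 with 1 tumour left out. MHC class I genes, 6, numbered 10 with no filter, 2 after thinning and 2 to 10 with 1 tumour left out. Type I interferon genes, 9, numbered 5 with DESeq2, 17 with no filter, 5 with free RNA subtracted, 3 after thinning and 3 to 10 with 1 tumour left out. Inflammatory genes, 8, numbered 5 with DESeq2 and 4 to 11 with 1 tumour left out. In myofibroblasts with at least 1 Xist UMI, a setting chosen after seeing the data, 145 genes changed and 18 interferon-gamma genes were higher. The cause of these shifts was not tested. Thinning, requiring Xist and leaving out tumours also leave fewer counts. In the other gated fibroblasts the 1493 calls became 3336 with no filter, 514 with the replicate block, 0 in cells with Xist (chosen after seeing the data; 778 at an unadjusted p under 0.05 in edgeR) and 333 to 2203 with 1 tumour left out. The 146 differences between the classes became 388 with no filter, 0 in cells with Xist (574 at an unadjusted p under 0.05 in edgeR) and 49 to 578 with 1 tumour left out. Hnrnpa2b1 reversed to 0.0604 on the log2 scale after thinning, with no call in either fit. The KO minus WT difference in share was 4.11 to 48.2 percentage points of gated fibroblasts and 0.0147 to 0.985 of kept barcodes with 1 tumour left out. With Xist required of all gated fibroblasts it was 8.93 percentage points, against 26.2 without that limit.

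With the tumour number as a replicate block, 218 genes changed in the myofibroblasts, of which 187 were among the 206, and 22 interferon-gamma, 7 MHC class I, 9 type I interferon and 10 inflammatory genes were higher. Deviations of same-numbered tumours correlated at -0.0333 over 6087 genes, which with 2 tumours a group is 1 value and does not settle what equal numbers share.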
